A study of Mus musculus with 24 samples.

Results

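The 43 genes described here encode the constitutive proteasome and the proteins that assemble or regulate it, and they were found by gene symbol among the 14537 genes counted in mouse skeletal muscle and heart. They comprise 14 core particle subunits, 18 regulatory particle subunits, 8 assembly chaperones, and 3 activators or inhibitors. All 43 were present in both count tables and passed the filter on low counts in both tissues, with a lowest count of 24 in any muscle library and 42 in any heart library.

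RNA sequencing was used to ask how gemcitabine plus nab-paclitaxel, a chemotherapy pair given for pancreatic cancer, affects the wasting (cachexia) of mice that carry such a tumour. All mice were male C57BL/6J. KPC+GnP mice carried KPC32908 pancreatic cancer cells placed in the pancreas and received gemcitabine and nab-paclitaxel; KPC mice carried the same cells and received vehicle; control mice had sham surgery and no treatment, although their labels also list the cell line. Each group had 4 muscle and 4 heart libraries, 24 in all, from 16 animals by the numbers in the sample titles, 8 of which gave both tissues. A single tumour cell line was used, and the tissues were sequenced whole, so that a change in the mix of cells and a change in RNA per cell cannot be told apart. The labels say nothing of litters or batches, so p-values measure the spread between these 4 animals per group.

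The proteasome is the barrel-shaped protease that degrades ubiquitin-tagged proteins. Its core particle is built of stacked rings of alpha subunits, which form the gate, and beta subunits, among which Psmb5, Psmb6 and Psmb7 carry the protease sites. The regulatory particle caps the core: its base holds a ring of ATPases (Psmc genes) that unfold substrates, scaffold subunits and ubiquitin receptors, and its lid holds Psmd14, the enzyme that removes ubiquitin chains. In skeletal muscle the ubiquitin-proteasome pathway is a known route of myofibrillar protein loss in wasting, and the proteasome genes are known to be driven together by the transcription factor encoded by Nfe2l1, which binds antioxidant response elements.

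Their promoters were searched for that element's core, TGACNNNGC on either strand, in the 250 bases before the RefSeq start site (GRCm38.p6). A window was listed for 36 of the 43 genes, and 6 of them (16.7%) held a match, against 11.5% of 27025 genes in the same table. The 6 matches are shown as 60-base stretches, 5′ to 3′ on the gene's strand, with the match in capitals. The first 5 belong to particle subunits (5 of 26 with a window, 19.2%) and the last to an assembly chaperone (1 of 7, 14.3%). All 32 particle subunits rose in KPC muscle, with or without a match, and the chaperone Psmd9 did not pass the test there. In Psmb5 (chr14:54618008-54618067, minus strand) the match began 47 bases before the start site, and in Psmb6 (chr11:70525297-70525356, plus strand) 9 bases before it. It began 227 bases before the start in Psmc6 (chr14:45329574-45329633, plus strand), 162 in Adrm1 (chr2:180171401-180171460, plus strand), 247 in Psmd12 (chr11:107479278-107479337, plus strand) and 31 in Psmd9 (chr5:123228130-123228189, plus strand). In Psmc6 and Psmd12 the letters matched on the opposite strand.
Psmb5: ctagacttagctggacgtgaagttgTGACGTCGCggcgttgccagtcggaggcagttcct
Psmb6: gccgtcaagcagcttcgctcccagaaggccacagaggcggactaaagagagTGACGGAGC
Psmc6: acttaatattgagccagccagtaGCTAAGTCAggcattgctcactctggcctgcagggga
Adrm1: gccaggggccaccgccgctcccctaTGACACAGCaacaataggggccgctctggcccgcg
Psmd12: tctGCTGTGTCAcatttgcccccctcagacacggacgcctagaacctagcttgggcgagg
Psmd9: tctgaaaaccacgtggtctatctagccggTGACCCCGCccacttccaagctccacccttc

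A CCAAT box was present in 13 of the 36 windows (36.1%, against 37.5% of all genes). By role group it was in 5 of 7 alpha ring, 1 of 4 beta ring, 2 of 5 ATPase, 2 of 4 other base and 1 of 6 lid genes. It was also in 0 of 4 core assembly, 1 of 3 base assembly and 1 of 3 activator or inhibitor genes. The forkhead core TGTTTAC was in 0 of 36 (3.54% of all genes), and TTCNNNGAA, the letters bound by STAT factors, in 1 (2.78%, against 8.13%). No match says only that these letters are not in this window. The genes themselves lie on 16 chromosomes, each at 1 locus, so they do not form a single cluster. Psmd4, for example, spans chr3:95032694-95042614, Psma7 chr2:180036374-180042433, Psmd11 chr11:80428615-80473248 and Psmb5 chr14:54614119-54618022 (GRCm38). Some members do lie near each other: Psmb4 (chr3:94884093-94886961) is close to Psmd4, and Adrm1 (chr2:180171485-180176286) to Psma7. Exons of 10 of the 43 members overlap those of other genes. Those of Psmb7, Psmc3, Psmd1 and Psmd13 overlap Nek6, Slc39a13, Htr2b and Sirt3 on the opposite strand. Their counts are uncertain where the counting did not use strand, which the sources used here do not state. Psmd1, Psmg3 and Psmb5 overlap Gm21972, Gm26938 and Mir686 on the same strand, which strand would not separate. The largest overlap was that of Psmd9, 1849 of 7248 exon bases, with Gm26745 on the opposite strand. None of these last other genes is among those counted.

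Muscle libraries held 18285396 to 27382432 counts and heart libraries 11020931 to 20969551. KPC muscle 1 stood apart from the other KPC muscles before any test. The median member lay 0.27 log2 above the control mean in KPC muscle 1, against 1.37, 1.19 and 1.23 in KPC muscle 2, 3 and 4, and −0.16 to −0.01 across the KPC+GnP muscles. The members took 0.434% of all counts in KPC muscle 1 and 1.07%, 0.937% and 0.977% in the other KPC muscles, against 0.408% to 0.463% in KPC+GnP muscles and 0.413% to 0.478% in control muscles. Its column in the count table carries a 2 after the sample's title. Its FPKM column bears the title alone and follows those counts as closely as in the other libraries, and no other column carries its number. The heart of the same title number is KPC heart 4. Counts of members called are given with and without KPC muscle 1 in muscle and KPC heart 4 in heart.

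**Figure D1:**
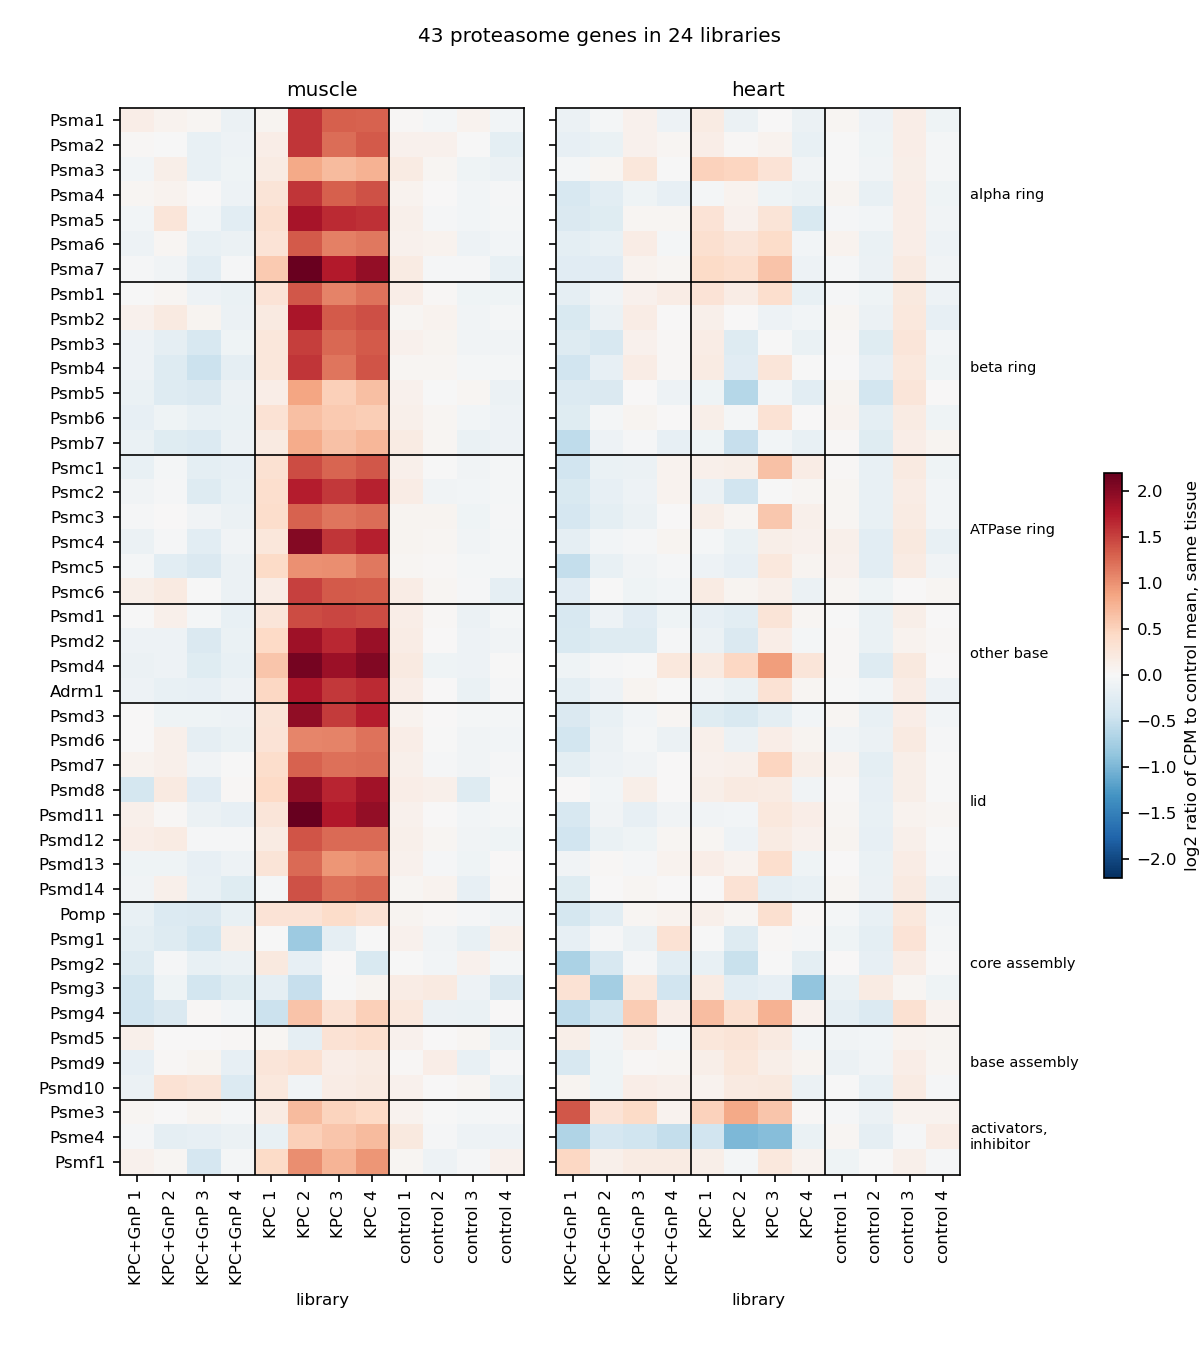
Each row is a gene and each column a library, with muscle on the left and heart on the right; the colour is the log2 ratio of CPM (counts scaled to library size) to the control mean of the same tissue. The KPC muscle columns 2 to 4 are red over the 32 particle subunits, column 1 is paler, and the heart columns show no such block.

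In muscle of KPC mice, all 32 core and regulatory particle subunits among the members were higher than in sham muscle. Of the 43 members, 36 rose, 0 fell and 7 did not pass the test (edgeR quasi-likelihood test, adjusted p under 0.05), while 27.5% of all 12760 genes tested were called higher. The median log2 fold change was 1.07 over the members and 0.00 over all genes, and 34 members were higher without overlap between the groups, as were 19.8% of all genes. These subunits rose by 0.53 to 1.77 on the log2 scale with a median of 1.17, whereas 1 of the 8 assembly chaperones rose. Without KPC muscle 1 again 36 rose (31.5% of all genes) with a median of 1.22. When libraries were scaled by their total counts the median of all genes shifted to −0.17 and 33 members were higher (18.1% of all genes), with a median of 0.92.

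The 7 alpha ring genes rose with a median of 1.17. Psma7, an alpha subunit, had the largest change of the ring, with 71.8, 69.4, 62.3 and 72.5 CPM in KPC+GnP muscles, 110, 330, 245 and 280 CPM in KPC muscles, and 83.4, 72.3, 72.2 and 65.7 CPM in control muscles. Every KPC library exceeded every control library, and the KPC+GnP and control values overlapped. The KPC to control log2 fold change of Psma7 was 1.72 ± 0.25 (SE, adjusted p = 0.00044), and 1.94 without KPC muscle 1. Psma3 moved least: it had 113, 130, 106 and 112 CPM in KPC+GnP muscles, 135, 212, 193 and 201 CPM in KPC muscles, and 134, 122, 111 and 108 CPM in control muscles. Its KPC and control values did not overlap, but KPC muscle 1 was only just above the highest control. The log2 change of Psma3 was 0.64 ± 0.14 (adjusted p = 0.00283). Psma1 was the alpha gene whose groups overlapped, with 69.1 CPM in KPC muscle 1 against a highest control of 70.2 CPM.

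The 7 beta ring genes rose with a median of 1.04, and the catalytic members moved least. Psmb5, the chymotrypsin-like site, had 43.2, 39.3, 38.4 and 43.8 CPM in KPC+GnP muscles, 52.6, 86.8, 68.7 and 75.9 CPM in KPC muscles, and 50.7, 47.5, 49.1 and 43.5 CPM in control muscles. Psmb6, the caspase-like site, had 78.8, 83.9, 80.2 and 81.1 CPM in KPC+GnP muscles, 112, 143, 134 and 131 CPM in KPC muscles, and 97.3, 93.0, 85.9 and 83.1 CPM in control muscles. Psmb7, the trypsin-like site, had 161, 146, 144 and 162 CPM in KPC+GnP muscles, 202, 312, 278 and 292 CPM in KPC muscles, and 201, 183, 160 and 163 CPM in control muscles. All 4 KPC libraries were above all controls for each of these genes, although for Psmb7 KPC muscle 1 was only just above the highest control. The log2 changes were 0.57 ± 0.13 for Psmb5 (adjusted p = 0.00431), 0.53 ± 0.10 for Psmb6 (adjusted p = 0.00115) and 0.61 ± 0.13 for Psmb7 (adjusted p = 0.00285). These were the 3 smallest changes among the 32 particle subunits; the median was 0.57 over the catalytic genes and 1.17 over the 29 other particle subunits, a difference for which no test between genes was made. Without KPC muscle 1 they stood at 0.67, 0.58 and 0.71.

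The beta subunit with the largest change was Psmb2, which is not catalytic. Psmb2 had 51.8, 55.6, 50.6 and 44.4 CPM in KPC+GnP muscles, 56.2, 168, 124 and 130 CPM in KPC muscles, and 50.1, 51.4, 46.0 and 47.4 CPM in control muscles. KPC muscle 1 was close to the controls while the other KPC libraries were far above them. The log2 change of Psmb2 was 1.30 ± 0.24 (adjusted p = 0.00126), and 1.51 without KPC muscle 1.

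**Figure D2:**
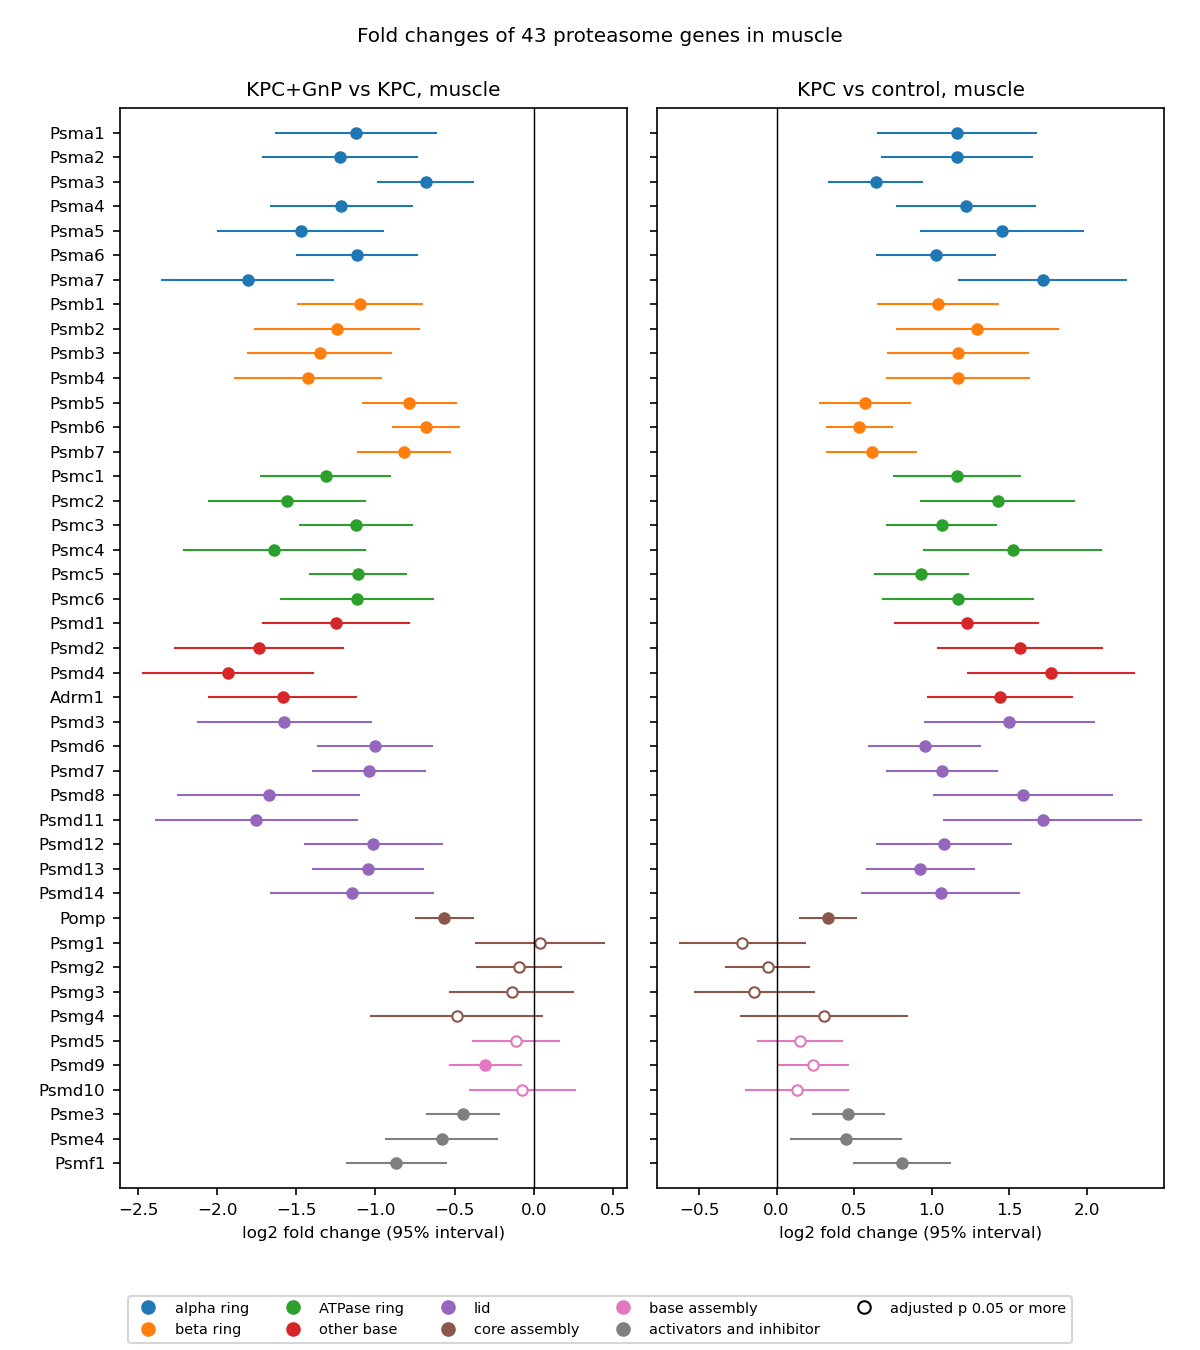
Points are log2 fold changes of the 43 members in muscle with 95% intervals, coloured by role, for KPC against control and KPC+GnP against KPC; filled points passed the adjusted p threshold of 0.05. The particle subunits lie between 0.53 and 1.77 in KPC against control, and the chaperones Psmg1 to Psmg4, Psmd5 and Psmd10 cross 0 in both.

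In the regulatory particle all 18 genes rose, with a median of 1.20. The 6 ATPases had a median of 1.17, between Psmc5 at 0.93 ± 0.14 (adjusted p = 0.000477) and Psmc4 at 1.52 ± 0.26 (adjusted p = 0.000937). Psmc4 had 71.5, 76.8, 66.4 and 74.4 CPM in KPC+GnP muscles, 93.2, 318, 233 and 256 CPM in KPC muscles, and 81.7, 80.7, 74.5 and 76.3 CPM in control muscles. Psmc5 had 110, 95.4, 90.9 and 103 CPM in KPC+GnP muscles, 152, 227, 230 and 252 CPM in KPC muscles, and 116, 115, 110 and 110 CPM in control muscles. For both ATPases the KPC values were above all controls, and KPC muscle 1 was the lowest of the KPC libraries. Without it the changes were 1.76 for Psmc4 and 1.05 for Psmc5.

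The other base genes had the highest median of the 8 role groups, 1.51. Psmd4, a ubiquitin receptor, had the largest change of all members, with 112, 113, 101 and 109 CPM in KPC+GnP muscles, 186, 526, 450 and 501 CPM in KPC muscles, and 139, 114, 113 and 121 CPM in control muscles. The KPC values were clear of both other groups, and the KPC+GnP values lay just below the lowest control. The log2 change of Psmd4 between KPC and control was 1.77 ± 0.25, a 3.41-fold difference (adjusted p = 0.000394), and 1.99 without KPC muscle 1. Adrm1, another ubiquitin receptor, rose by 1.44 ± 0.22, and the scaffold Psmd2 by 1.57 ± 0.24. Psmd1, the other scaffold, moved least of the 4: it had 229, 250, 224 and 206 CPM in KPC+GnP muscles, 277, 624, 636 and 624 CPM in KPC muscles, and 256, 234, 210 and 224 CPM in control muscles, a log2 change of 1.23 ± 0.21 (adjusted p = 0.000939).

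The 8 lid genes had a median of 1.08. Psmd11, a lid scaffold subunit, had 108, 102, 91.0 and 88.2 CPM in KPC+GnP muscles, 121, 469, 339 and 383 CPM in KPC muscles, and 107, 100.3, 95.6 and 96.6 CPM in control muscles. Psmd13, the lid gene with the smallest change, had 56.1, 55.9, 52.4 and 54.9 CPM in KPC+GnP muscles, 72.5, 142, 117 and 122 CPM in KPC muscles, and 63.9, 58.2, 56.0 and 60.3 CPM in control muscles. Neither gene's KPC and control values overlapped. The log2 changes were 1.72 ± 0.29 for Psmd11 (adjusted p = 0.000887) and 0.93 ± 0.16 for Psmd13 (adjusted p = 0.000918), and without KPC muscle 1 they were 1.97 and 1.07. Psmd14, the lid deubiquitinase, rose by 1.06 ± 0.24 (1.28 without KPC muscle 1) with overlap, since KPC muscle 1 was at 61.6 CPM and the controls reached 67.2 CPM.

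The chaperones behaved otherwise. Pomp, which matures the nascent core particle, was the chaperone that rose: it had 55.2, 50.1, 49.9 and 55.6 CPM in KPC+GnP muscles, 76.3, 76.2, 82.1 and 77.4 CPM in KPC muscles, and 64.6, 63.2, 61.1 and 58.9 CPM in control muscles. The 3 groups did not overlap, and KPC muscle 1 was level with the other KPC libraries. The change of Pomp was 0.33 ± 0.08 (adjusted p = 0.00603), and 0.33 without KPC muscle 1, but it did not pass the test when libraries were scaled by total counts (0.17, adjusted p = 0.121). Psmg1 and Psmg2, partners that start alpha ring assembly, had KPC to control log2 changes of −0.22 ± 0.19 (adjusted p = 0.335) and −0.06 ± 0.12 (adjusted p = 0.721). Psmg1 had 6.18, 5.89, 5.39 and 7.83 CPM in KPC+GnP muscles, 7.15, 4.09, 6.22 and 7.15 CPM in KPC muscles, and 7.68, 6.80, 6.42 and 7.75 CPM in control muscles. Psmg2 had 12.6, 15.2, 13.8 and 14.2 CPM in KPC+GnP muscles, 17.99, 13.6, 15.6 and 12.3 CPM in KPC muscles, and 15.4, 14.9, 16.5 and 15.02 CPM in control muscles. All groups of these genes overlapped.

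Psmg3 and Psmg4, another pair of alpha ring chaperones, also overlapped in all groups. Psmg3 had 3.27, 4.10, 3.30 and 3.60 CPM in KPC+GnP muscles, 3.77, 3.08, 4.34 and 4.55 CPM in KPC muscles, and 4.88, 5.001, 4.02 and 3.5 CPM in control muscles (log2 change −0.14, adjusted p = 0.518). Psmg4 had 1.23, 1.32, 1.67 and 1.58 CPM in KPC+GnP muscles, 1.18, 2.53, 2.05 and 2.36 CPM in KPC muscles, and 1.93, 1.51, 1.49 and 1.66 CPM in control muscles (0.31, adjusted p = 0.318). KPC muscle 1 was the lowest of the 12 libraries for Psmg4 and the other KPC muscles were the 3 highest.

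The base chaperones Psmd5, Psmd9 and Psmd10 hold ATPase subunits during base assembly, and none passed the test between KPC and control. Psmd5 had 18.5, 17.2, 17.2 and 17.5 CPM in KPC+GnP muscles, 17.6, 14.9, 21.4 and 22.1 CPM in KPC muscles, and 18.2, 17.3, 17.6 and 15.4 CPM in control muscles (log2 change 0.15, adjusted p = 0.318). Psmd10 had 6.59, 8.97, 8.69 and 5.85 CPM in KPC+GnP muscles, 8.47, 6.86, 8.07 and 8.26 CPM in KPC muscles, and 7.68, 7.28, 7.45 and 6.47 CPM in control muscles (0.13, adjusted p = 0.487). Groups overlapped for both. Psmd9 had 15.02, 17.4, 17.8 and 15.1 CPM in KPC+GnP muscles, 20.7, 21.5, 19.0 and 19.4 CPM in KPC muscles, and 17.3, 18.9, 15.3 and 16.9 CPM in control muscles. Its KPC values lay narrowly above all controls, with a log2 change of 0.24 ± 0.10 (adjusted p = 0.0743). The 95% intervals of the 7 uncalled chaperones reached up to 0.84 in log2 change for Psmg4 and 0.46 for Psmd9 and Psmd10, so changes up to those sizes are not excluded.

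The alternative caps and the inhibitor passed the test, with changes below the particle median, and for both caps the call depended on the scaling. Psmf1, a proteasome inhibitor protein, had 14.2, 13.6, 10.3 and 12.9 CPM in KPC+GnP muscles, 17.8, 26.9, 22.2 and 26.0 CPM in KPC muscles, and 13.7, 12.2, 13.1 and 14.1 CPM in control muscles (log2 change 0.81 ± 0.14, adjusted p = 0.00103). Psme3, a ubiquitin-independent activator of the nucleus, rose by 0.46 ± 0.11 (adjusted p = 0.00359) but not under scaling by total counts (adjusted p = 0.0546). Psme4, a large activator that can cap the core in place of the regulatory particle, had 519, 460, 464 and 486 CPM in KPC+GnP muscles, 472, 757, 805 and 853 CPM in KPC muscles, and 614, 522, 490 and 491 CPM in control muscles. KPC muscle 1 was below every control for Psme4 and the other KPC libraries were above them. The change of Psme4 was 0.45 ± 0.16 (adjusted p = 0.0362), and 0.59 without KPC muscle 1 (adjusted p = 0.000278), but in 6 of the 12 fits that leave out a library it did not pass the test, with adjusted p up to 0.109. Nor did Psme4 pass under scaling by total counts (0.29, adjusted p = 0.178), with limma on log2 FPKM (0.35, adjusted p = 0.0755) or in a fit of KPC and control alone (0.44, adjusted p = 0.0825).

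**Figure D3:**
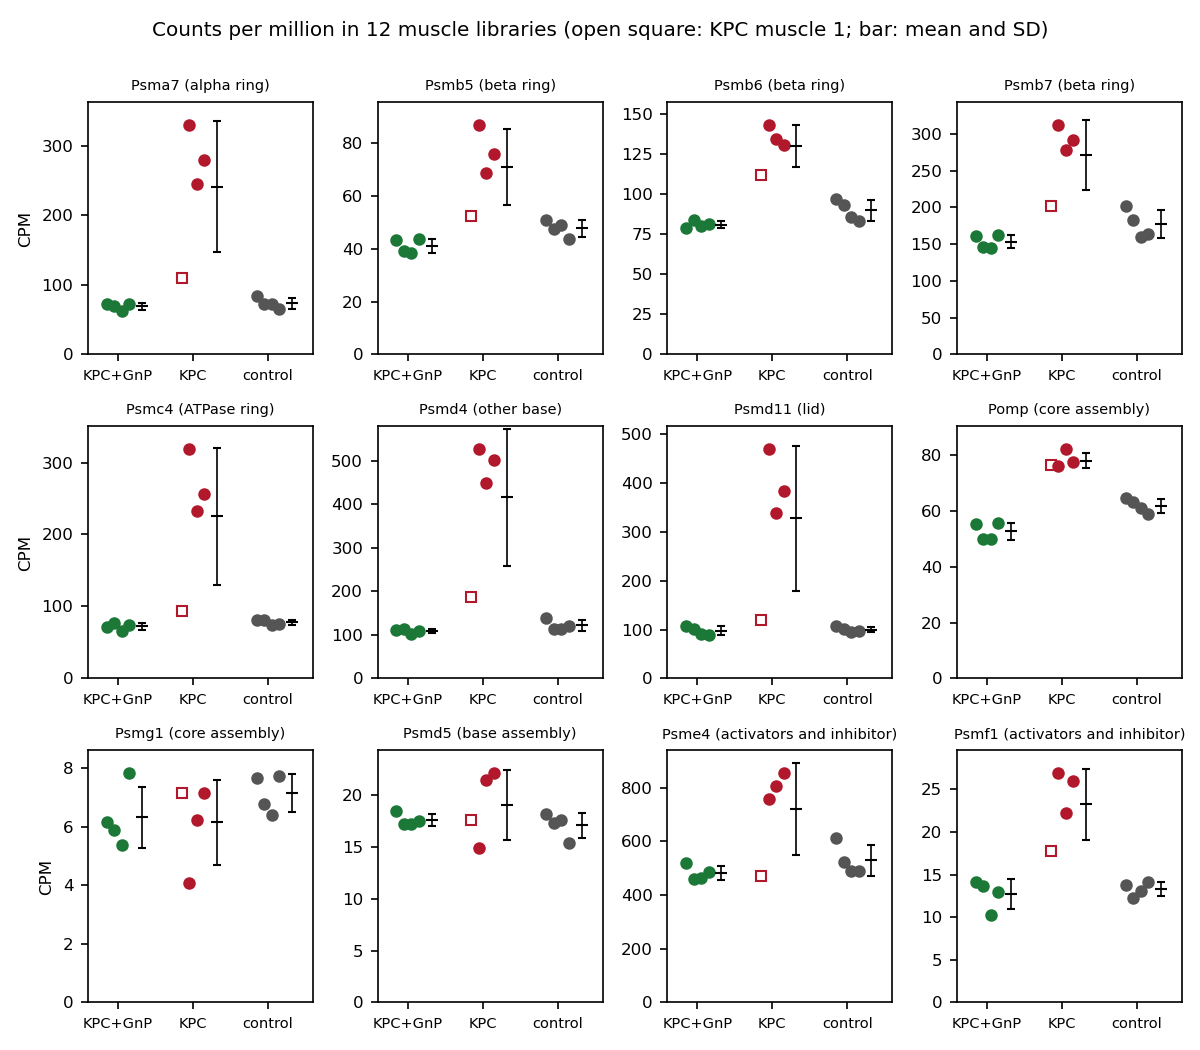
Each panel gives CPM of a member in the 12 muscle libraries by group, with the mean and SD as bars and KPC muscle 1 as an open square. In the particle subunit panels KPC muscle 1 is the lowest KPC library and lies above the highest control, as for Psmd11 at 121 CPM against 107 CPM. It is level with its group for Pomp at 76.3 CPM.

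On the per-length scale (FPKM), which allows levels of different genes to be set side by side, control muscle had the highest level for Psmb7, 241 FPKM, and the lowest particle subunit was Psma5 with 47.5 FPKM. The chaperones other than Pomp, which had 111 FPKM, ranged from 4.10 FPKM for Psmg4 to 19.3 FPKM for Psmg2. In KPC muscle the highest mean was that of the lid subunit Psmd8, 507 FPKM, against 178 FPKM in control. Summed over the 14 core subunits, levels were 1271 to 1389 FPKM in KPC+GnP muscles, 1715, 3522, 2935 and 3082 FPKM in KPC muscles, and 1366 to 1586 FPKM in control muscles. Over the 18 regulatory subunits they were 1569 to 1749, then 2262, 5227, 4598 and 4912, and 1636 to 1955 FPKM in the same groups. The ratio of these sums, core to regulatory, was 0.774 to 0.812 in KPC+GnP muscles, 0.758, 0.674, 0.638 and 0.628 in KPC muscles, and 0.787 to 0.835 in control muscles, so all KPC libraries lay below all others. The 8 chaperones summed to 149 to 160 FPKM in KPC+GnP, 187 to 208 FPKM in KPC and 170 to 186 FPKM in control muscles, of which Pomp was the larger share.

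**Figure D4:**
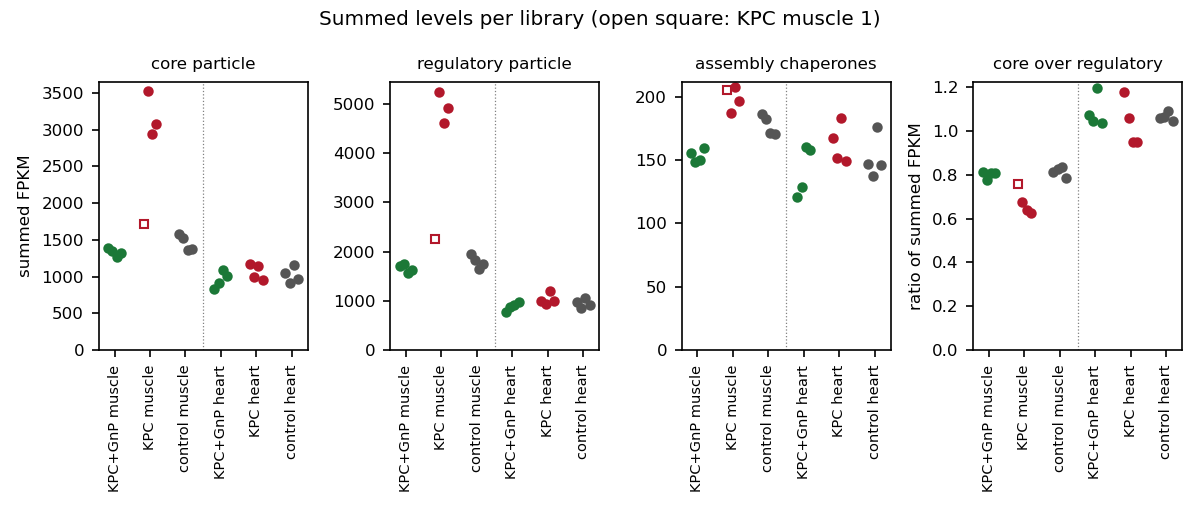
Summed FPKM of core, regulatory and chaperone genes and the core to regulatory ratio, per library, in 6 groups of 4, with KPC muscle 1 as an open square. The KPC muscles reach 3522 FPKM for the core and 5227 FPKM for the regulatory particle, and their ratios of 0.628 to 0.758 are the lowest shown.

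In tumour-bearing mice given gemcitabine and nab-paclitaxel, the same subunits were lower than in tumour-bearing mice given vehicle. In KPC+GnP muscle, 37 members were lower than in KPC muscle and 0 higher (26.7% of all genes were called lower), with a median log2 fold change of −1.12 over the members and 0.02 over all genes. The groups did not overlap for 33 of them, as for 17.8% of all genes. The KPC libraries serve both comparisons, so the 2 sets of fold changes are not independent. The particle subunits were lower by a median of 1.22, between Psmd4 (−1.93 ± 0.25, adjusted p = 0.00035) and Psmb6 (−0.68 ± 0.10, adjusted p = 0.000465), and Psma7 changed by −1.81 (adjusted p = 0.000414). Without KPC muscle 1, 38 were lower (31.4% of all genes), Psmg4 being the added gene at −0.67, with a median of −1.29. Under scaling by total counts the median of all genes was 0.27 and that of the members −0.88.

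Psmb5 and Psmb7 were lower by 0.79 (−0.79 ± 0.13, adjusted p = 0.000865) and 0.82 (−0.82 ± 0.13, adjusted p = 0.000685), and Psma3 by 0.68. Pomp changed by −0.57 ± 0.08 (adjusted p = 0.000472), with every KPC+GnP library below every KPC and every control library. Psmd9 fell to 15.02 to 17.8 CPM in KPC+GnP muscles, against 19.0 to 21.5 CPM in KPC muscles (−0.31 ± 0.10, adjusted p = 0.0277), a call lost under scaling by total counts (−0.05). Psmg1, Psmg2, Psmg3, Psmg4, Psmd5 and Psmd10 did not pass the test. Psmf1 changed by −0.87 ± 0.14, Psme4 by −0.58 ± 0.16 (adjusted p = 0.0111) and Psme3 by −0.45 ± 0.11. Under scaling by total counts neither activator passed, with Psme4 at −0.34 (adjusted p = 0.116) and Psme3 at −0.21 (adjusted p = 0.175).

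Between KPC+GnP and control muscle no member passed the test with edgeR, DESeq2 or limma, and neither did any of all 12760 genes with edgeR. At an unadjusted p under 0.05 there was 1 member, Pomp (−0.23 ± 0.08, unadjusted p = 0.0149 from edgeR's model across all genes), against 3.24% of all genes. The median over the members was −0.09, with 34 of 43 below 0, against 0.02 over all genes, with 5882 of 12760 below 0. The members' log2 changes ran between −0.28 for Psmg3 and 0.07 for Psmd12. Psmb3, Psmb4, Psmd4 and Pomp were lower without overlap (2.47% of all genes were), at −0.18, −0.26, −0.16 and −0.23. The 95% interval of Psmd4 was −0.68 to 0.36 and that of Psmb5 −0.50 to 0.08, so differences within those ranges between KPC+GnP and control muscle are not excluded.

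Markers of other cells moved in the same muscles. All 6 fibroblast markers fell in KPC against control (22.1% of all genes), their summed CPM being 614 to 1100 in KPC+GnP, 216 to 349 in KPC and 761 to 2115 in control muscles, with none at 0. Of the endothelial markers 3 of 5 fell, and of the macrophage markers 2 of 6, a share near that of all genes (3 without KPC muscle 1 or under scaling by total counts), with summed macrophage CPM of 32.7 to 127 in KPC+GnP, 26.5 to 39.8 in KPC and 40.1 to 74.6 in control. None of the 6 skeletal fibre markers passed the test, although without KPC muscle 1 there were 2 lower in KPC against control and 2 higher in KPC+GnP against KPC, and under scaling by total counts 1 lower in KPC against control. Their sums were 121300 to 133000, 108400 to 189200 and 118200 to 158800 CPM in KPC+GnP, KPC and control muscles. Other markers were higher in KPC muscle: both tested erythroid markers (1 under scaling by total counts), 1 of 2 neutrophil and 1 of 4 adipocyte markers rose, where 27.5% of all genes did. The erythroid markers summed to 5.64 to 9.81 CPM in KPC+GnP, 3.11 to 13.01 CPM in KPC and 2.33 to 3.117 CPM in control muscles, the neutrophil markers to 0.36 to 2.32, 0.623 to 2.21 and 0.0904 to 0.458 CPM, and the adipocyte markers to 1.48 to 21.4, 13.7 to 55.2 and 3.30 to 18.7 CPM. Cardiomyocyte markers summed to at most 264 CPM in muscle, with 1 of 6 at 0. In KPC+GnP against KPC muscle, 6 of 6 fibroblast, 5 of 6 macrophage, 3 of 5 endothelial and 1 of 3 tested cardiomyocyte markers were higher (23.1% of all genes). There 1 of 4 adipocyte markers was lower (26.7% of all genes), and no tested erythroid or neutrophil marker passed. The part of these cells in the subunit result was not tested.

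Other proteasome-associated genes and genes that deliver substrates moved largely with the members. Of the 23 such genes tested in muscle, 18 rose and 1 fell in KPC against control (27.5% and 22.1% of all genes). Ubb, which encodes polyubiquitin, rose by 2.37 ± 0.30 (adjusted p = 0.00034). Zfand5, a proteasome-binding protein, rose by 1.53 ± 0.22. Usp14, a deubiquitinase that docks on the base, rose by 1.26 ± 0.25 (adjusted p = 0.00189), while the docking deubiquitinase Uchl5 changed by 0.19 (adjusted p = 0.158). Sem1, the small lid subunit outside the 43 genes, changed by −0.22 ± 0.14 (adjusted p = 0.198). In KPC+GnP against KPC muscle 18 of the 23 were lower and 1, the ubiquitin-activating enzyme Uba6, was higher (26.7% and 23.1% of all genes). Under scaling by total counts the counts were 16 higher and 4 lower in KPC against control (18.1% and 31.8% of all genes), and 16 lower and 2 higher in KPC+GnP against KPC (13.9% and 38.4%). Without KPC muscle 1 they were 18 higher and 3 lower in KPC against control (31.5% and 30.4%).

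The immunoproteasome, whose beta subunits replace the constitutive catalytic ones in immune cells and inflamed tissue, ran the other way. Of its 5 genes 4 fell in KPC muscle (22.1% of all genes) and 0 rose: Psmb9 (−2.03 ± 0.51, adjusted p = 0.00651), Psmb10 (−0.999 ± 0.26, adjusted p = 0.00721), Psme1 (−0.87 ± 0.25, adjusted p = 0.0129) and Psmb8 (−1.01 ± 0.30, adjusted p = 0.0137). Their levels were low, with Psmb8 at 1.74 ± 0.62 CPM in KPC and 3.51 ± 0.59 CPM in control muscle (SD, n = 4 each). Psme1, Psmb9 and Psmb10 were higher in KPC+GnP than in KPC muscle, by 0.93, 1.68 and 0.76 (23.1% of all genes were called higher). Without KPC muscle 1, all 5 fell in KPC against control (30.4% of all genes) and all 5 were higher in KPC+GnP than in KPC (31%). Under scaling by total counts the same counts were found, against 31.8% and 38.4% of all genes.

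Of 11 known or proposed regulators of the subunit genes, 10 rose in KPC muscle (27.5% of all genes), also without KPC muscle 1. The exception was Nfe2l1, at 864 ± 36 CPM in KPC and 817 ± 18 CPM in control muscle (SD, n = 4 each; log2 change 0.08 ± 0.11, adjusted p = 0.533, and −0.08 under scaling by total counts). Its product is regulated after translation, which these counts do not measure. Foxo1, a forkhead factor of muscle atrophy, rose by 3.24 ± 0.38 (adjusted p = 0.000308), Maff, a small Maf partner, by 3.43 ± 0.54 (adjusted p = 0.00061), and Foxo3 by 1.76 ± 0.29 (adjusted p = 0.000751). All 11 were lower in KPC+GnP than in KPC muscle (26.7% of all genes), also without KPC muscle 1, Nfe2l1 by 0.28 (−0.28 ± 0.11, adjusted p = 0.0426), although under scaling by total counts 9 were (13.9% of all genes) and Nfe2l1 was at −0.03. Between KPC+GnP and control 0 of the 11 passed the test, and neither did any of all 12760 genes.

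In the heart no member passed the test in any of the 3 comparisons with edgeR, where 9.34% of 13846 genes were called in either direction for KPC against control, 1.55% for KPC+GnP against KPC and 1.23% for KPC+GnP against control. For KPC against control the median log2 change over members was 0.06, and 4 members had an unadjusted p under 0.05 (30.6% of all genes did). DESeq2 called 1 member higher, Psmd4, and 1 lower, Psme4 (9.74% and 7.39% of all genes). Psmd4 had 89.5, 93.7, 95.7 and 112 CPM in KPC+GnP hearts, 110, 132, 182 and 116 CPM in KPC hearts, and 97.9, 78.7, 111 and 96.0 CPM in control hearts. Of the KPC hearts 1 was just below the highest control and the others were above it. The log2 change of Psmd4 was 0.49 ± 0.16 (adjusted p = 0.0718).

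For Psme4 the values ran the other way. It had 364, 449, 426 and 402 CPM in KPC+GnP hearts, 432, 290, 301 and 520 CPM in KPC hearts, and 593, 506, 567 and 649 CPM in control hearts. KPC heart 4 was the KPC heart within the control range, and all KPC+GnP hearts were below all controls. The change of Psme4 was −0.58 ± 0.18 in KPC against control (adjusted p = 0.0602) and −0.50 ± 0.18 in KPC+GnP against control (adjusted p = 0.163). Psma3 had 85.5, 90.1, 105 and 87.5 CPM in KPC+GnP hearts, 125, 122, 108 and 82.9 CPM in KPC hearts, and 87.0, 83.1, 96.4 and 84.9 CPM in control hearts (KPC to control 0.32 ± 0.13, adjusted p = 0.124). KPC heart 4 was just below the lowest control, and the other KPC hearts were above the highest.

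Leaving out KPC heart 4 gave 3 members higher and 1 lower in KPC against control hearts, where 13.6% of all genes were then called higher and 11.7% lower. These were Psma3 at 0.43 (adjusted p = 0.0139), Psma7 at 0.47 (adjusted p = 0.0192), Psmd4 at 0.56 (adjusted p = 0.034) and Psme4 at −0.76 (adjusted p = 0.00777). In KPC+GnP against KPC hearts it gave 1 lower member, Psma7 at −0.56 (adjusted p = 0.0276), where 4.4% of all genes were called lower.

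For KPC+GnP against KPC hearts 36 of 43 members were below 0, with a median of −0.15. Of all 13846 genes 7199 were below 0, with a median of −0.01. An unadjusted p under 0.05 was found for 7 members (20.8% of all genes). Psmc1, an ATPase, had 122, 147, 149 and 172 CPM in KPC+GnP hearts, 177, 179, 256 and 182 CPM in KPC hearts, and 167, 146, 187 and 154 CPM in control hearts. Psma7 had 88.6, 89.2, 112 and 109 CPM in KPC+GnP hearts, 141, 136, 162 and 98.1 CPM in KPC hearts, and 104, 96.97, 121 and 100.3 CPM in control hearts. The 2 tumour groups did not overlap for Psmc1 and did for Psma7. Changes were −0.43 ± 0.15 for both (adjusted p = 0.141 for each) and −0.46 ± 0.16 for Psmd4 (adjusted p = 0.142). Psmc1, Psmc3, Psmd7 and Psmd9 were lower without overlap, as were 3.8% of all genes.

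Between KPC+GnP and control hearts the members' median was −0.09, or 0.07 under scaling by total counts where that of all genes was 0.17, and the 3 members with an unadjusted p under 0.05 (19.9% of all genes) were the activators and the inhibitor. Psme3 had 244, 118, 127 and 100.2 CPM in KPC+GnP hearts, 136, 169, 145 and 96.9 CPM in KPC hearts, and 93.4, 87.6, 99.9 and 99.9 CPM in control hearts. Psmf1 had 28.9, 23.0, 24.1 and 23.9 CPM in KPC+GnP hearts, 23.1, 20.6, 24.9 and 22.4 CPM in KPC hearts, and 19.9, 21.0, 23.0 and 20.8 CPM in control hearts. For neither gene did the KPC+GnP and control values overlap, though for Psmf1 they met, nor did they for Psme4; 15.9% of all genes were without overlap in either direction. Changes were 0.63 ± 0.25 for Psme3 (adjusted p = 0.197) and 0.24 ± 0.10 for Psmf1 (adjusted p = 0.224).

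The catalytic genes in heart lay within overlapping ranges in all groups. Psmb5 had 43.2, 42.5, 53.8 and 49.4 CPM in KPC+GnP hearts, 49.8, 34.3, 50.7 and 45.4 CPM in KPC hearts, and 55.3, 40.4, 63.6 and 53.4 CPM in control hearts. Psmb6 ranged over 84.6 to 105 CPM in KPC+GnP, 98.7 to 127 CPM in KPC and 87.8 to 115 CPM in control hearts, and Psmb7 over 101 to 146, 105 to 142 and 124 to 164 CPM. Heart libraries also differed in other cells: the neutrophil markers summed to 4.83 to 23.6 CPM in KPC+GnP, 11.1 to 187 CPM in KPC and 1.23 to 5.02 CPM in control hearts, the erythroid markers to 363 to 2937, 91.8 to 1186 and 38.4 to 202 CPM, and the brown adipocyte markers to 24.9 to 562, 19.4 to 31.6 and 17.4 to 28.6 CPM. Macrophage markers summed to 202 to 319, 221 to 954 and 162 to 275 CPM, and cardiomyocyte markers to 32100 to 52340, 25410 to 53980 and 40140 to 55120 CPM in the same order. None of these lists had a marker at 0 in all heart libraries, and their part in the member values was not tested.

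The difference between tissues was tested directly, in a fit of all 24 libraries. The KPC to control change was higher in muscle than in heart for 32 members and lower for 0 (12.4% of 14509 genes were called higher), with a median difference of 0.84 over members and −0.13 over all genes. All 18 regulatory subunits and 12 of 14 core subunits were among them, and 0 of 8 chaperones. The largest difference was that of Psmd3, a lid subunit, at 1.64 ± 0.28 (adjusted p = 0.00118), and the smallest called one that of Psmf1 at 0.63 ± 0.17 (adjusted p = 0.0113). Psma3 (0.24, adjusted p = 0.35) and Psmb6 (0.35, adjusted p = 0.0853) were the core subunits that did not pass. Psme4 differed by 0.95 ± 0.25 (adjusted p = 0.00934), having risen in muscle with a negative value in heart, and Psme3 by −0.13 (adjusted p = 0.751).

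The KPC+GnP to KPC change was lower in muscle than in heart for 32 members (13.2% of all genes), again with 18 of 18 regulatory subunits and 0 of 8 chaperones, and with a median of −0.87. Psmd3 was at −1.63 ± 0.28 (adjusted p = 0.000967) and Psmb6, the smallest called, at −0.48 ± 0.15 (adjusted p = 0.0225). Both results rest on a fit that treats libraries of an animal as separate. With the animal as a fixed block, which keeps only the 16 libraries of the 8 animals with both tissues, 0 members passed in either comparison (0.00691% of all genes were called higher and 0.145% lower), with medians of 0.80 and −0.65. With the animal as a random block over all 24 libraries, in limma, 32 and 32 passed (11% of all genes called higher and 11.4% lower). Without KPC muscle 1 the same members passed in the edgeR fit. Psmb6 was added in KPC against control (0.40, adjusted p = 0.0316). Psma3 (−0.50, adjusted p = 0.021) and Psme4 (−0.77, adjusted p = 0.00912) were added in KPC+GnP against KPC.

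**Figure D5:**
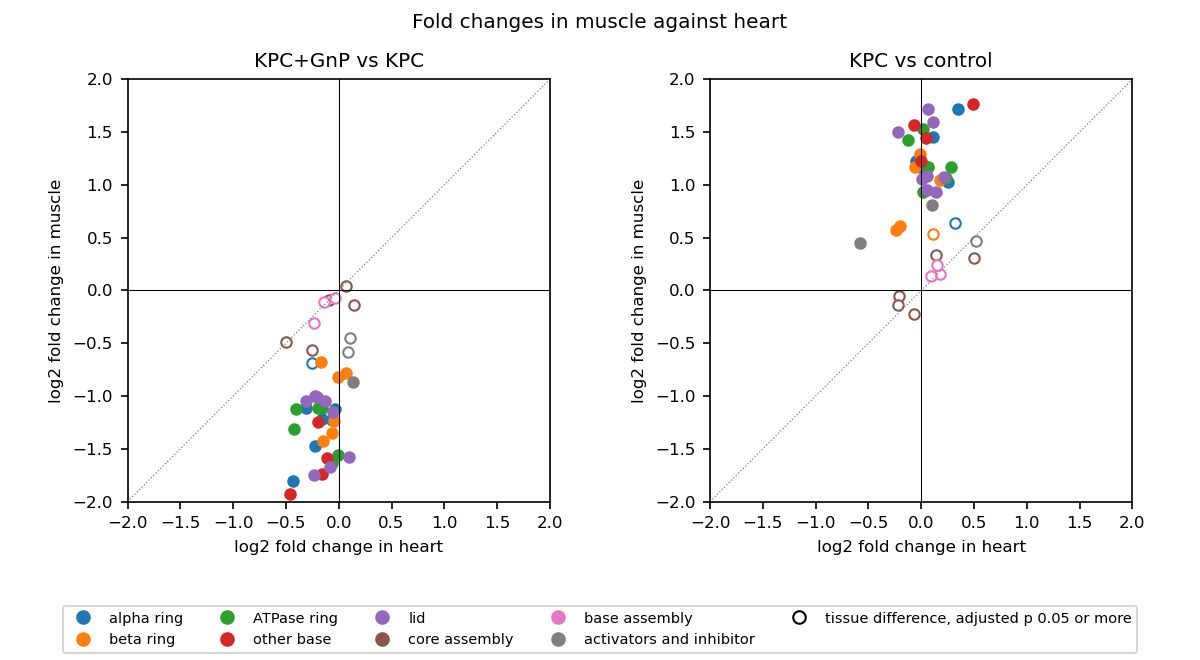
Each point is a member, with its log2 fold change in heart and in muscle on the 2 axes, for KPC against control and KPC+GnP against KPC; filled points passed the test of the tissue difference and the dotted line marks equal change. Particle subunits lie away from that line, Psmd3 with tissue differences of 1.64 and −1.63, while all 8 chaperones are open points.

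In sham mice, 30 members were higher in muscle than in heart and 0 lower (29.2% of all genes were called higher), with a median of 0.59. Under scaling by total counts, however, 5 were higher (12.3% of all genes) and 8 lower (57.2%). The medians were then −0.05 over the members and −0.70 over all genes, against −0.06 over all genes in the first scaling. For 18 members that passed the test under at least 1 of these scalings, the sign reversed between them. Changes of sign in members that passed under neither scaling are not in that count. The members' median lay above that of all genes under either scaling. Of the sham mice, 3 gave both tissues: with the animal as a fixed block Psma4, Psmb3, Psmc3, Psmd3, Pomp and Psme4 did not pass the test (adjusted p = 0.0604 to 0.167) and Psmb1 did (0.38, adjusted p = 0.0454). Psmd8 had the largest difference, with 296, 293, 215 and 269 CPM in control muscles against 78.6, 68.4, 84.2 and 76.0 CPM in control hearts when all 24 libraries were scaled together. These do not overlap, and the log2 difference was 1.80 ± 0.21 (adjusted p = 1.4e-07). Psma1 differed least among alpha subunits, by 0.05 ± 0.18 (adjusted p = 0.833). The core to regulatory ratio of summed FPKM was 0.787 to 0.835 in control muscles and 1.04 to 1.09 in control hearts.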

How the data were processed

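Messenger RNA libraries (100 ng of total RNA, paired reads of 100 bases) from muscle and heart were deposited as raw counts per gene and as log2 FPKM. The tools named by the submitters' processing notes are STAR 2.5, Subread 1.5.1 with featureCounts, edgeR 3.12.1 and FastQC 0.11.5, on mm10; which tool did what, with which annotation and strand setting, is not given in the sources used here. Log2 FPKM values from the authors followed the deposited counts and gene length with an SD of at most 0.00181 over genes of at least 200 counts, and were turned back to FPKM for sums and ratios.

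Counts were fitted per tissue, 12 libraries and 3 groups in each fit, with edgeR 4.0.16 (TMM scaling, filterByExpr with minimum counts of 10 and 15 in total, quasi-likelihood test, Benjamini-Hochberg adjustment over all genes, threshold 0.05) in R 4.3.3. A joint fit of 24 libraries tested differences between tissues. The SE of a log2 fold change is its size over the root of F. CPM values are scaled by TMM. Alternatives were library totals, the size factors of DESeq2 within edgeR, DESeq2 1.42.0, no filter, limma 3.58.1 on log2 FPKM, 2-group fits, each library left out, and the animal as a block. For the pathway lists other scalings and the fit without KPC muscle 1 were added after seeing the data. Scripts were tested on simulated data.

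Members, role groups and pathway and marker lists were chosen with earlier results of these data known. Values per library are given for the catalytic genes, the largest and smallest change of each role group in KPC against control muscle, members that missed the threshold there, and the 3 smallest p of 2 heart comparisons; other genes come from the fixed lists, with those of the smallest p. The title number was read as the animal: deviations from group means in muscle and heart of 1 animal correlated between −0.28 and 0.28 over the 8 animals (across genes), those of different animals between −0.25 and 0.34, and both animal fits are printed beside the tissue result. No 2 libraries of a group held the same values. 2 members have more than 1 promoter window listed, and any window with a match counted.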

Additional observations from a re-analysis of the deposited data

Results flagged for a closer look

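Of 324 sets of 4 values checked, 15 held a value far from the other 3 by Dixon's test, and chance alone gives about 1 in 20. The sets were, in each group, each member's CPM, the medians over all members and over role groups, the members' share of counts and the core to regulatory ratio. KPC muscle 1 was the lowest of the KPC muscles for Psmc3 (240.9 CPM, the others 418 to 452), Psmd1 (276.9, the others 624 to 636), Psmd7 (192.6, the others 338 to 359) and Psmd12 (128.7, the others 267 to 294). The same library had a median log2 deviation from the control mean of 0.273 over all members (the others 1.19 to 1.37), 0.358 over the ATPases, 0.447 over the other base genes, 0.287 over the lid and 0.178 over the activators and inhibitor.

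In the other groups, control muscle 1 was highest for Psmc2 (129.2 CPM, the others 110 to 113) and KPC+GnP heart 1 lowest for Psmd14 (50.72, the others 60.9 to 62.5). KPC heart 3 was highest for Psmc1 (255.5, the others 177 to 182), Psmc3 (347.8, the others 238 to 252) and Psmd7 (155.9, the others 121 to 123). KPC+GnP muscle 2 had a core to regulatory ratio of 0.774, below 0.806 to 0.812 in the rest of its group. Under the joint edgeR fit 32 members differed between muscle and heart in each of the 2 tested contrasts: between 1.64 for Psmd3 and 0.63 for Psmf1 in KPC against control, and between −1.63 for Psmd3 and −0.48 for Psmb6 in KPC+GnP against KPC.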

How the results depend on the processing

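Over 8256 values of single members under the alternatives, 8054 kept their call, 144 no longer passed the threshold, 40 came to pass it and 18 reversed. A reversal was counted only where the value passed the threshold in the main fit or in the alternative. Values that passed in neither are among the 8054, also where their sign changed. All 18 reversals were in muscle against heart of sham mice under scaling by library totals, which gave −0.59 for Psma1, −0.22 for Psma4, −0.12 for Psma5, −0.099 for Psma6, −0.60 for Psmb2, −0.16 for Psmb3, −0.025 for Psmb5, −0.047 for Psmb6, −0.078 for Psmc1, −0.20 for Psmc3, −0.027 for Psmd3, −0.044 for Psmd12, −0.043 for Psmd13, −0.37 for Pomp, −0.42 for Psmg2, −0.18 for Psmd5, −0.51 for Psmd10 and −0.54 for Psmf1. That scaling also made 5 members higher (12.3% of all genes) and 8 lower (57.2%) with a median of −0.047. With DESeq2, Psmg1 came to pass the threshold there (−0.41, adjusted p = 0.0351). Library totals moved the members' median to −0.0016 in KPC+GnP against control muscle, 0.21 in KPC against control heart and 0.072 in KPC+GnP against control heart, where the medians of all genes were 0.10, 0.17 and 0.17, and gave 2 members higher in KPC against control heart, where DESeq2 gave 1 higher and 1 lower. In a fit of only the compared groups Psme4 came to pass the threshold in KPC+GnP against control heart (−0.49, adjusted p = 0.038). With the animal as a fixed replicate block 0 members differed between tissues in KPC against control and 0 in KPC+GnP against KPC. The cause of these changes was not tested. The fixed block also kept fewer libraries, and the same libraries were not fitted without it.

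Leaving out each library in turn gave, in muscle, 35 to 36 members higher in KPC against control (median 0.97 to 1.22), 36 to 38 lower in KPC+GnP against KPC (−1.29 to −0.99) and a median of −0.13 to −0.067 in KPC+GnP against control. With all libraries kept, 27.5% of all genes were called higher in the first comparison and 26.7% lower in the second. In heart it gave 0 to 3 higher and 0 to 1 lower in KPC against control (0.015 to 0.13), 0 to 1 lower in KPC+GnP against KPC (−0.18 to −0.082) and −0.14 to −0.023 in KPC+GnP against control. The tissue differences gave 31 to 33 (0.76 to 0.99) and 31 to 34 (−1.03 to −0.75), and muscle against heart 26 to 33 higher and 0 to 1 lower (0.53 to 0.63). The share of all genes called is not given here for each of these fits, so the ranges show only how far the member counts moved. With 4 libraries a group, low-count genes such as Psmg4 have the widest intervals.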
